A study of Homo sapiens with 5 samples.

Results

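The proteasome genes of HT1080 cells, a human fibrosarcoma line, were followed across 5 RNA-seq libraries. They were chosen by name, as every gene symbol that begins with PSM, a letter from A to G and a number, and 50 of the 27189 genes in the files matched. Of these, 47 have a known place in the proteasome, its assembly or its regulation. The other 3, PSMC3IP, PSMD6-AS2 and PSMG3-AS1, match by spelling alone: the first codes for a protein of meiotic recombination and the others are non-coding RNAs. PSMG2, an assembly chaperone, was not analysed here. In all conditions cells were embedded for 24 h in type I collagen at 2 mg/ml. LD and HD were seeded at 10 and 50 cells per cubic mm without added cytokine. IL-6 and IL-8 were LD matrices given one recombinant human cytokine each, and RM was an LD matrix given both, at a ratio of 5 to 2 and at the levels that HD matrices reach. Each condition was sequenced as 1 library from 1 experiment, and IL-6, IL-8, RM and HD all share LD as their comparison. A condition and its library therefore cannot be told apart, no difference below has a replicate check, and no test between conditions was possible.

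The proteasome degrades proteins tagged with ubiquitin. Its 20S core is a barrel of stacked rings, with PSMA subunits in the outer rings and PSMB subunits in the inner ones, and proteolysis is carried out by PSMB5, PSMB6 and PSMB7. The 19S regulatory particle caps the core. PSMC subunits are the ATPases that unfold substrates, and PSMD subunits form the rest of the base and the lid, where ubiquitin is bound and removed. PSME proteins are alternative caps, PSMF1 is an inhibitor of the core, and PSMG proteins help to assemble it. Interferon replaces the catalytic subunits with PSMB8, PSMB9 and PSMB10 to form the immunoproteasome, which serves antigen presentation. The constitutive subunits are made in every cell, and their genes are known to be controlled together.

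A ribosomal RNA entry, RNA5-8S5, took 51.5 to 79.6% of the reads of a library and was left out of all scaling, which left between 449661 reads in HD and 1645539 in LD. HD stood apart. It had the fewest reads and the most genes with a read, 20113 against 13469 to 15080 in the other libraries. The floor of 3 reads was 6.67 CPM (reads per 1000000 outside RNA5-8S5) in HD and 1.82 to 2.73 CPM elsewhere. The 7 mesenchymal markers in the files, led by VIM and LGALS1, summed to 7007 to 10790 TPM (transcript abundance scaled to 1000000, corrected for transcript length) in the 4 low-density libraries and to 1288 TPM in HD. The 3 leukocyte markers PTPRC, CD3E and CD14 had 0 to 2 reads in each low-density library and 46 reads in HD, where 3 of 3 were detected. The 3 epithelial markers summed to 3.23 to 38.5 TPM and to 65.1 TPM in HD, and EPCAM was at 0 in every library but HD, where it had 3 reads. KRT19, which held all the epithelial reads in LD, went the other way, with 38.5 TPM from 132 reads in LD and 21.0 TPM from 13 reads in HD. Their part in the results for HD was not tested. The main low-density counts of called proteasome genes were also made with HD left out of the filter. Other counts and the shares of all genes kept HD in it. In bulk RNA, fewer cells of a type and less RNA per cell cannot be told apart.

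Proteasome genes took close to 1% of the reads in the low-density libraries and 0.239% in HD. Their share of reads outside RNA5-8S5 was 1.04% in LD (95% Wilson interval 1.03 to 1.06%), 0.973% with IL-6 (0.955 to 0.992%), 0.972% with IL-8 (0.954 to 0.991%), 0.977% with RM (0.961 to 0.994%) and 0.239% at HD (0.225 to 0.254%). The interval of LD did not meet those of the cytokine libraries, which overlapped each other. Intervals and floors throughout cover the counting of reads only, and amplified reads without molecular identifiers are not independent molecules. Summed levels were 12550 TPM in LD, 11510 with IL-6, 10980 with IL-8, 11000 with RM and 4232 at HD. At least 20 reads were counted on 43 of the 50 genes in LD, 40 with IL-6, 36 with IL-8, 37 with RM and 17 at HD, so that most single genes were well measured at low density and few were in HD.

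**Figure D1:**
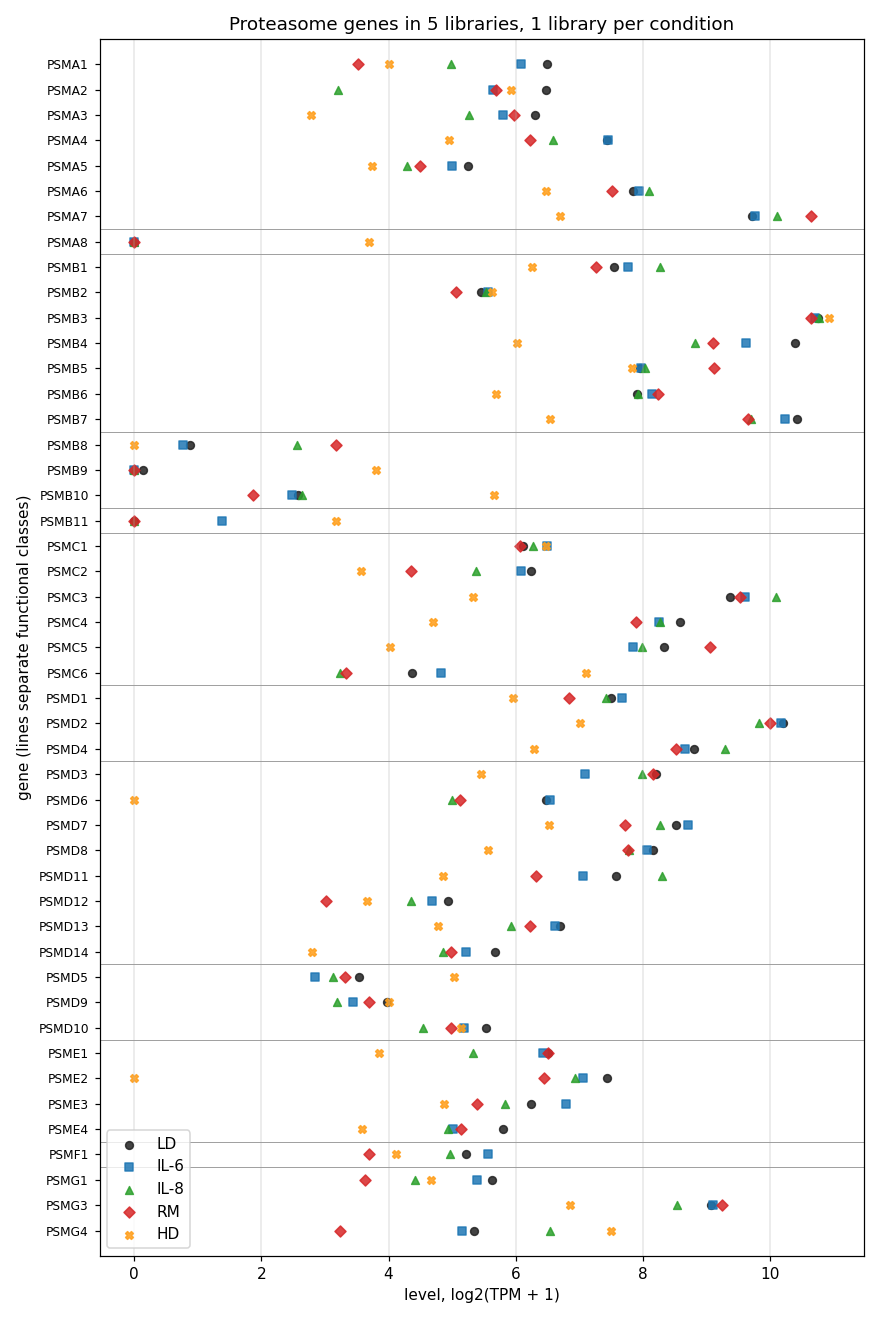
Level of the 47 proteasome genes with a known role, as log2(TPM + 1) on the horizontal axis, with 1 row per gene, lines between functional classes and 1 symbol per library. The low-density symbols of most genes lie close together, while the crosses of HD lie to the left for most subunits and to the right for PSMB10, PSMC6, PSMG4 and PSMD5. PSMB3 has its 5 symbols together near the right edge.

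Differences from LD were taken as log2(TPM + 1), a scale on which low levels move less than their true fold, and a gene was called higher or lower when it differed by at least 1 log2 unit. All 50 genes passed the filter of 1 TPM in at least 1 library, together with 21313 genes in all; 46 passed it without HD. In IL-6, 2 of 50 were called higher and 1 lower, where 12.2% and 8.42% of all genes were. The 2 higher, PSMB11 and PSMC3IP, had 2 reads each in IL-6 and 0 in LD. In IL-8, 2 were higher and 8 lower, beside 9.4% and 18% of all genes. In RM, 2 were higher and 11 lower, beside 7.11% and 22.5%. These counts were the same with the filter that left HD out, an outcome fixed in advance. A gene under 1 TPM in all 4 low-density libraries cannot differ among them by 1 log2 unit on this scale. The share called lower, 16% in IL-8 and 22% in RM, was near that of all genes, so those lower calls say nothing particular of proteasome genes. The share called higher was 4% in each of IL-6, IL-8 and RM, and the share called lower in IL-6 was 2%, all below those of all genes. Genes that passed the main filter through HD alone were never called at low density, which lowers the shares of all genes. In HD, 10 of 50 were higher and 31 lower, beside 60.1% and 20.3% of all genes. Of these 10, PSMA8, PSMB9, PSMD6-AS2 and PSMG3-AS1 reached 1 TPM in HD alone. The HD counts and shares were not made with the filter that left HD out. A gene that passed through HD alone can be called higher in HD but never lower. The shares of 60.1% and 20.3% therefore follow in part from the filter.

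Many of the genes behind those backgrounds had few reads. Among the 6756 genes with a mean of at least 20 reads, which include 42 of the 50, none of the 42 was higher and 1 was lower in IL-6, beside 9.38% and 7.18% of all such genes. In IL-8, 1 was higher and 8 lower (10.6% and 20.6%). In RM, 1 was higher and 11 lower (9.8% and 29.6%). In HD, 4 were higher and 31 lower (24.5% and 46.7%). The median difference of the 42 was -0.10 with IL-6, -0.39 with IL-8, -0.67 with RM and -2.21 at HD. The median of all 6756 genes also moved, by 0.02, -0.30, -0.49 and -0.84. Relative to it the proteasome genes stood at -0.12, -0.09, -0.18 and -1.37. The direction in IL-8 and RM depended on scaling, while IL-6 stayed below 0 under all 4 settings: with median-ratio size factors the median of the 42 was 0.01 in IL-8 and 0.04 in RM, and that of all 6756 genes was 0.08 and 0.19. Relative to all genes the proteasome genes then stood at -0.07 and -0.14, and at -1.38 in HD.

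The order of the genes by level was largely kept at low density. Spearman's rho with LD over the 42 genes was 0.973 for IL-6, 0.922 for IL-8 and 0.955 for RM, where all 6756 genes gave 0.901, 0.841 and 0.812. With HD it was 0.418, against 0.148 over all genes. These are descriptions across genes, which share a library and its depth and are not independent replicates.

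The genes of the alpha ring, which gates entry to the core, spanned from PSMA5 to PSMA7 in LD. PSMA7 was at 839 TPM in LD, 867 with IL-6, 1108 with IL-8, 1597 with RM and 103 at HD. It was higher in RM than in the other libraries, with a read share 2.10 (95% counting interval 1.92 to 2.29) times that of LD and 1480 reads against 810, and HD was the low library, with 21 reads. Its difference in RM was 0.93 on the main scale and 1.65 under median-ratio scaling. PSMA5 was at 37.2 TPM in LD, 31.0 with IL-6, 18.6 with IL-8, 21.6 with RM and 12.3 at HD, and was called in HD alone. PSMA1, which shares 24.7% of its exon bases with an unnamed protein-coding locus, was at 88.8 TPM in LD, 66.6 with IL-6, 30.7 with IL-8, 10.5 with RM and 15.1 at HD. Its reads numbered 106, 53, 26, 12 and 3 in the same order, and its read share was 0.360 (95% counting interval 0.225 to 0.557) times that of LD in IL-8 and 0.130 (95% counting interval 0.0650 to 0.236) times in RM. PSMA1 was below LD by at least 1 log2 unit in IL-8 and RM under all 4 scalings tried.

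PSMA2 had a different pattern. It was at 87.6 TPM in LD, 48.7 with IL-6, 8.23 with IL-8, 50.7 with RM and 59.9 at HD, from 127 reads in LD, 50 with IL-6, 16 with IL-8, 72 with RM and 53 at HD. IL-8 was the low library, 10.7-fold below LD in TPM and 5.41-fold below in read share, with a ratio of 0.185 (95% counting interval 0.103 to 0.312). Other genes lie over 34.6% of its exon bases. In HD its TPM was lower than in LD but its read share was 1.53 (95% counting interval 1.09 to 2.12) times as large, so the direction in HD depended on the measure. PSMA4 was at 173 TPM in LD, 175 with IL-6, 95.3 with IL-8, 73.6 with RM and 29.97 at HD, so that LD and IL-6 were alike and IL-8 and RM lower. It was called lower in RM, with a read share ratio of 0.480 (95% counting interval 0.366 to 0.624), and by less than 1 log2 unit, -0.51, under median-ratio scaling. PSMA3 was at 78.0 TPM in LD, 54.9 with IL-6, 37.3 with IL-8, 61.7 with RM and 5.87 at HD and was called lower in IL-8 at -1.05, also by less, -0.65, under median-ratio scaling. PSMA6, at 182 to 274 TPM at low density, was called in HD alone. Summed over the ring, the share of reads was 0.101% in LD, 0.0969% with IL-6, 0.104% with IL-8, 0.136% with RM and 0.0247% at HD, and PSMA7 alone gave 1480 of the reads in RM.

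The beta ring held the steadiest gene at low density on the main scale. PSMB3, a non-catalytic subunit, was at 1726 TPM in LD, 1677 with IL-6, 1751 with IL-8, 1605 with RM and 1945 at HD, the highest level of any proteasome gene in each library. The low-density values differed by 1.09-fold from lowest to highest. Under median-ratio scaling PSMB3 differed from LD by 0.43 in IL-8 and 0.62 in RM. In HD its TPM was above that of LD but its read share was 0.836 (95% counting interval 0.729 to 0.956) times as large, with 267 reads where 319 would be at the share of LD. PSMB3 made up 46.0% of the summed TPM of the 50 genes there, against 13.8 to 15.9% in the other libraries. No annotated gene overlaps its exons, and 1 pseudogene carries its name. PSMB2, another non-catalytic subunit with the lowest level of the ring in LD, was at 42.9 TPM in LD, 46.4 with IL-6, 45.2 with IL-8, 32.4 with RM and 48.6 at HD. On the main scale its libraries also lay together. Under median-ratio scaling PSMB2 differed from LD by 0.47 in IL-8 and 0.31 in RM. Its read share in HD was 0.764 (95% counting interval 0.537 to 1.06) times that of LD. PSMB1 was at 186 TPM in LD, 217 with IL-6, 308 with IL-8, 153 with RM and 75.7 at HD, with IL-8 the highest of the 5. Its difference in IL-8 was 0.72 on the main scale and 1.13 under median-ratio scaling.

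PSMB4, a non-catalytic subunit, was lower in every other library than in LD. It was at 1344 TPM in LD, 786 with IL-6, 452 with IL-8, 547 with RM and 63.8 at HD, from 1152 reads in LD, 453 with IL-6, 280 with IL-8, 449 with RM and 11 at HD. The read share ratio was 0.588 (95% counting interval 0.526 to 0.656) in IL-6, 0.357 (95% counting interval 0.312 to 0.407) in IL-8 and 0.447 (95% counting interval 0.400 to 0.499) in RM. The counting intervals of IL-6 and IL-8 do not meet. IL-8 was past 1 log2 unit under all 4 scalings, while RM was past it in the main one and at -0.58 under median-ratio scaling. In HD PSMB4 had a 28.6-fold lower read share (95% counting interval 15.9 to 57.5) than in LD.

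The 3 catalytic genes did not move together. PSMB5, which carries the chymotrypsin-like activity, was at 248 TPM in LD, 250.5 with IL-6, 262 with IL-8, 557 with RM and 226 at HD, from 270 reads in LD, 161 with IL-6, 202 with IL-8, 556 with RM and 41 at HD. RM was the high library, at 2.36 (95% counting interval 2.04 to 2.74) times the read share of LD, while LD, IL-6 and IL-8 lay between 248 and 262 TPM. PSMB5 in RM was past 1 log2 unit under all 4 scalings. PSMB6, the caspase-like subunit, was at 239 TPM in LD, 282 with IL-6, 241 with IL-8, 301 with RM and 50.9 at HD, with low-density libraries within 1.26-fold. Its difference in RM was 0.33 on the main scale and 1.05 under median-ratio scaling. PSMB7, the trypsin-like subunit, was at 1373 TPM in LD, 1205 with IL-6, 831 with IL-8, 809.6 with RM and 91.8 at HD, lower in IL-8 and RM than in LD and IL-6 without being called. Under median-ratio scaling PSMB7 differed from LD by -0.32 in IL-8 and -0.04 in RM. In HD PSMB5 had 41 reads where 73.8 would be at the share of LD, PSMB6 had 8 where 51.1 would be, and PSMB7 had 18 where 356 would be.

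Of the inducible counterparts, PSMB8 and PSMB9 had at most 9 reads in a low-density library, and PSMB10 had 13 to 25. PSMB8 was at 0.827 TPM in LD, 0.703 with IL-6, 4.88 with IL-8, 8.03 with RM and 0 at HD, from 1, 1, 4, 9 and 0 reads. It was called higher in IL-8 and RM, at ratios of 5.87 (95% counting interval 0.581 to 289) and 10.3 (95% counting interval 1.43 to 453), and the first interval includes 1. PSMB9 had 1 read in LD, 0 in IL-6, IL-8 and RM and 3 in HD. PSMB10 was at 4.96 TPM in LD, 4.58 with IL-6, 5.22 with IL-8, 2.64 with RM and 49.7 at HD, from 25 reads in LD, 15 with IL-6, 19 with IL-8, 13 with RM and 49 at HD, and HD was the high library at 7.17 (95% counting interval 4.34 to 12.1) times the read share of LD. As a share of the TPM of each pair, PSMB8 made up 0.332% of PSMB8 and PSMB5 in LD, 0.28% with IL-6, 1.83% with IL-8, 1.42% with RM and 0% at HD. PSMB10 made up 0.360% of PSMB10 and PSMB7 in LD, 0.379% with IL-6, 0.625% with IL-8, 0.326% with RM and 35.1% at HD. By reads, PSMB10 made up 1.88% of that pair in LD and 73.1% in HD. PSMB9 made up 20.3% of PSMB9 and PSMB6 in HD, from 3 and 8 reads, and at most 0.0417% elsewhere. The constitutive gene held nearly the whole of each pair in TPM at low density. Another protein-coding gene lies over 34.8% of the exon bases of PSMB10. PSMB8 and PSMB9 lie beside each other on chromosome 6 (32840717 to 32844703 and 32844136 to 32859585 on GRCh38) and share exon bases on opposite strands, and the libraries did not keep the strand, so their few reads cannot be divided with certainty.

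Tissue-restricted core genes were counted mostly in HD. PSMA8, a testis subunit, had 0 reads in the 4 low-density libraries and 4 in HD, where the floor is 3 reads. PSMB11, a thymus subunit, had 2 reads in IL-6, 3 in HD and 0 elsewhere. PSMG3-AS1 had 19 reads in HD and at most 1 in any other library. HD was also the library with leukocyte marker reads, whose part in these counts was not tested.

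Of the ATPases, PSMC3 was the highest and PSMC6 the lowest in LD. PSMC3 was at 658 TPM in LD, 776 with IL-6, 1094 with IL-8, 741 with RM and 39.0 at HD, with IL-8 the highest library, at 1.76 (95% counting interval 1.62 to 1.92) times the read share of LD. Its difference in IL-8 was 0.73 on the main scale and 1.14 under median-ratio scaling. In HD 13 of its reads were counted where 276 would be at the share of LD. PSMC5 was at 320.3 TPM in LD, 229 with IL-6, 252 with IL-8, 534 with RM and 15.2 at HD, with RM the highest at a ratio of 1.83 (95% counting interval 1.62 to 2.07) and HD the lowest with 5 reads. Its difference in RM was 0.74 on the main scale and 1.46 under median-ratio scaling. PSMC2 went the other way, at 74.6 TPM in LD, 67.1 with IL-6, 40.5 with IL-8, 19.5 with RM and 10.8 at HD, from 207 reads in LD, 127 with IL-6, 81 with IL-8, 53 with RM and 4 at HD. Its ratio in RM was 0.294 (95% counting interval 0.213 to 0.399), past 1 log2 unit under all 4 scalings.

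PSMC6 and PSMC1 did not share the low level of the other ATPases in HD. PSMC6 was at 19.7 TPM in LD, 27.2 with IL-6, 8.38 with IL-8, 9.09 with RM and 136 at HD, from 31 reads in LD, 26 with IL-6, 8 with IL-8, 14 with RM and 38 at HD, and its read share in HD was 4.49 (95% counting interval 2.72 to 7.46) times that of LD. It was called lower in IL-8 and in RM, but the interval in RM holds 1, and under median-ratio scaling both differences were under 1 log2 unit, at -0.77 and -0.37. PSMC1 was at 68.2 TPM in LD, 89.3 with IL-6, 76.0 with IL-8, 66.2 with RM and 87.8 at HD, with a read share in HD of 1.01 (95% counting interval 0.642 to 1.55) times that of LD. NRDE2 covers 75.8% of the exon bases of PSMC1 on the other strand and 13 pseudogenes bear its name, so the reads of PSMC1 are uncertain. PSMC4 was at 383 TPM in LD, 305 with IL-6, 306 with IL-8, 237 with RM and 25.04 at HD, with LD the highest. Under median-ratio scaling PSMC4 differed from LD by 0.09 in IL-8 and 0.03 in RM, so LD was not the highest there.

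The base subunits PSMD1 and PSMD2, its large scaffold proteins, and PSMD4, a ubiquitin receptor, each lay within 1.80-fold at low density. PSMD2 was at 1176 TPM in LD, 1159 with IL-6, 908 with IL-8, 1028 with RM and 129 at HD and took 17.1 to 20.3% of all proteasome reads in the low-density libraries and 6.78% in HD, where 73 of its reads were counted and 906 would be at the share of LD. PSMD1 was at 180.5 TPM in LD, 203 with IL-6, 170.1 with IL-8, 113 with RM and 61.1 at HD. PSMD4 was at 445 TPM in LD, 407 with IL-6, 626 with IL-8, 366 with RM and 77.2 at HD, with IL-8 the highest. None of the 3 was called at low density, and all were called lower in HD.

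The lid held PSMD3, which was the 1 gene of 50 called in IL-6 with a counting interval that left out 1. This structural subunit was at 293 TPM in LD, 135 with IL-6, 254 with IL-8, 285 with RM and 42.9 at HD, from 633 reads in LD, 195 with IL-6, 398 with IL-8, 592 with RM and 19 at HD. IL-6 was low at a ratio of 0.460 (95% counting interval 0.390 to 0.541), while IL-8 and RM lay near LD. The call held under all 4 scalings. PSMD7, the highest of the lid in LD and the partner of the deubiquitinase PSMD14, was at 365 TPM in LD, 418 with IL-6, 307 with IL-8, 210.4 with RM and 91.3 at HD. PSMD14, which removes ubiquitin chains from substrates, was at 50.2 TPM in LD, 36.3 with IL-6, 28.1 with IL-8, 30.5 with RM and 5.92 at HD, and HD had 2 reads of it. PSMD12, the lowest of the lid in LD, was at 29.6 TPM in LD, 24.7 with IL-6, 19.5 with IL-8, 7.13 with RM and 11.7 at HD, from 52 reads in LD, 29 with IL-6, 18 with IL-8, 12 with RM and 4 at HD. Its ratio in RM was 0.265 (95% counting interval 0.129 to 0.503), past 1 log2 unit under all 4 scalings.

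PSMD6, another structural subunit of the lid, was lower in IL-8 and RM than in LD and IL-6, at 88.5 TPM in LD, 91.7 with IL-6, 30.9 with IL-8, 34.0 with RM and 0 at HD. Its ratios were 0.381 (95% counting interval 0.242 to 0.581) in IL-8 and 0.414 (95% counting interval 0.280 to 0.603) in RM, and the difference in RM was -0.65 under median-ratio scaling. No read of PSMD6 was counted in HD, where 29.5 would be at the share of LD, so it was at least 9.84-fold lower there with HD set to the floor, and the counting interval of the ratio starts at 7.86-fold. PSMD11 was at 189 TPM in LD, 133 with IL-6, 314 with IL-8, 78.9 with RM and 28.1 at HD, and its call depended on the measure. In RM it was 2.40-fold below LD in TPM, but its read share was 0.670 (95% counting interval 0.579 to 0.774) times that of LD, within 1 log2 unit. In IL-8 the difference of PSMD11 was 0.73 on the main scale and 1.13 under median-ratio scaling. PSMD8 and PSMD13 lay at 217 to 286 and 59.8 to 103 TPM at low density and were called in HD alone.

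**Figure D2:**
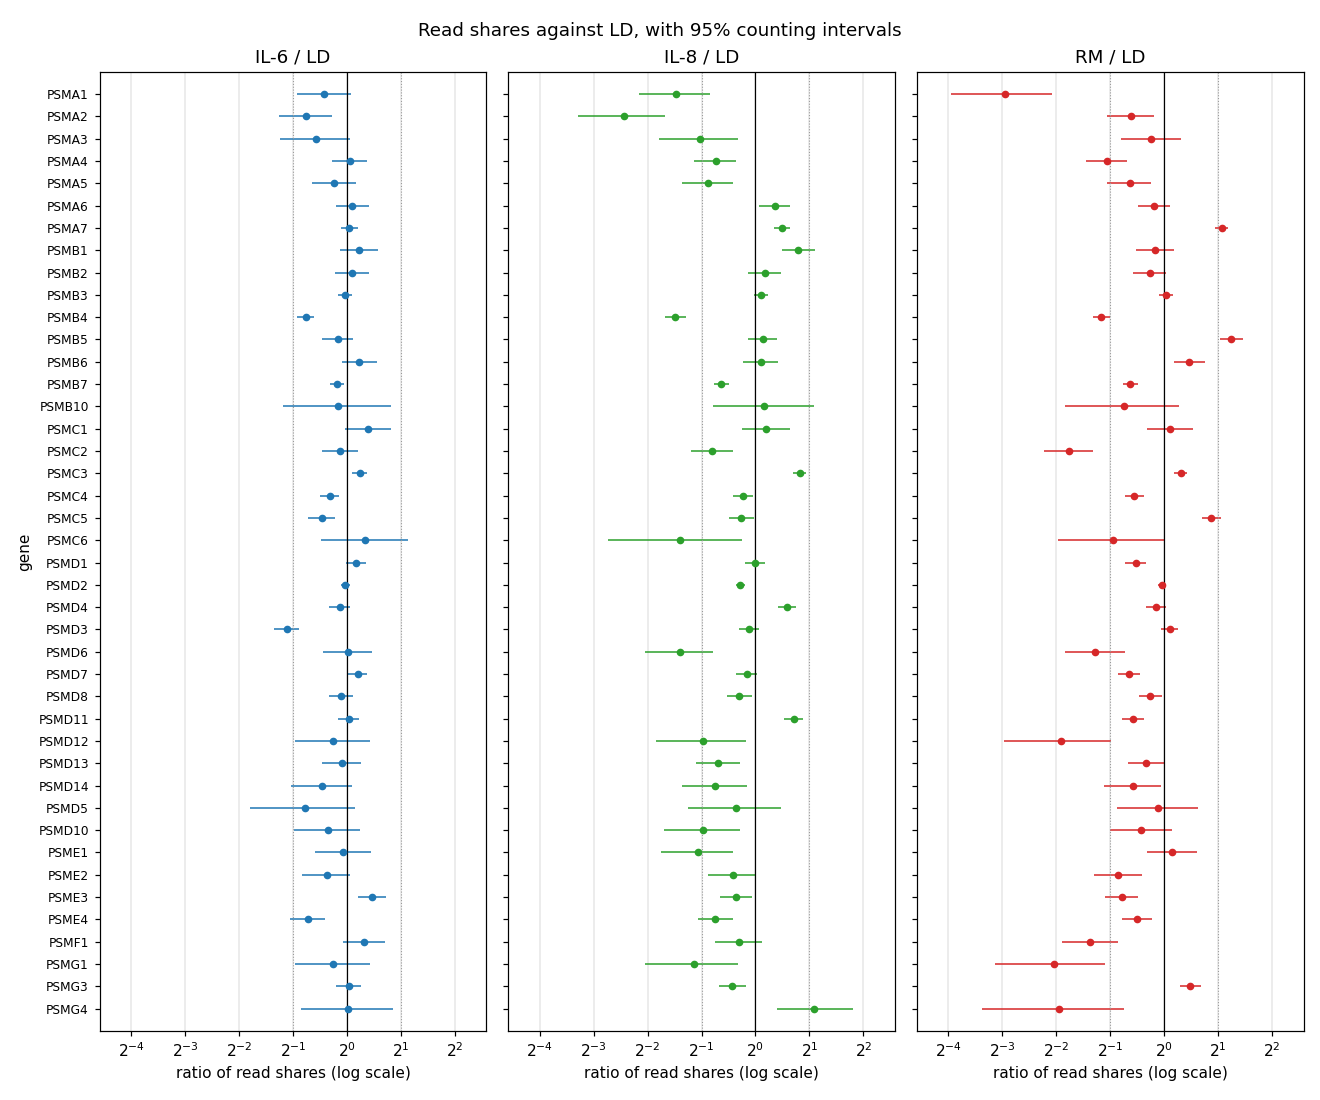
Read share of 42 proteasome genes with a mean of at least 20 reads in IL-6, IL-8 and RM over LD, on a log axis, with 95% counting intervals as bars and dotted lines at 0.5 and 2. In IL-6, PSMD3 lies beyond the dotted lines, while in IL-8 and RM genes lie on both sides, with PSMA1 far to the left in RM and PSMB5 and PSMA7 to the right.

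Of the assembly chaperones of the base, PSMD5 was high and PSMD10 low in HD by read share. PSMD5 was at 10.6 TPM in LD, 6.18 with IL-6, 7.78 with IL-8, 8.98 with RM and 31.6 at HD, from 36 reads in LD, 14 with IL-6, 19 with IL-8, 29 with RM and 22 at HD, and HD was the highest at 2.24 (95% counting interval 1.25 to 3.91) times the read share of LD. PSMD9 was at 14.7 TPM in LD, 9.85 with IL-6, 8.13 with IL-8, 11.9 with RM and 15.1 at HD, with 7 reads in HD and 9.29 at the share of LD. PSMD10, also known as gankyrin, was at 45.3 TPM in LD, 35.2 with IL-6, 22.4 with IL-8, 30.7 with RM and 34.5 at HD, and its read share in HD was 0.477 (95% counting interval 0.209 to 0.960) times that of LD. Summed over the 3, which joins the higher PSMD5 and the lower PSMD10, the share of reads was 0.00845% in LD, 0.00590% with IL-6, 0.00509% with IL-8, 0.00697% with RM and 0.00845% at HD.

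The core assembly chaperones were not alike. PSMG3 was at 539 TPM in LD, 547 with IL-6, 369 with IL-8, 607 with RM and 115 at HD, with RM the highest at low density. PSMG4, which pairs with PSMG3, was at 39.8 TPM in LD, 34.5 with IL-6, 91.9 with IL-8, 8.40 with RM and 179 at HD, from 31 reads in LD, 21 with IL-6, 45 with IL-8, 7 with RM and 39 at HD. It was high in IL-8, at 2.13 (95% counting interval 1.32 to 3.48) times the read share of LD, low in RM, at 0.259 (95% counting interval 0.0963 to 0.600), and highest in HD, at 4.60 (95% counting interval 2.80 to 7.63). These 3 differences were past 1 log2 unit under all 4 scalings. SLC22A23 and TUBB2B cover 15.0% of its exon bases on the other strand. PSMG1, the partner of PSMG2, was at 48.5 TPM in LD, 41.2 with IL-6, 20.3 with IL-8, 11.3 with RM and 24.5 at HD, from 52 reads in LD, 29 with IL-6, 16 with IL-8, 11 with RM and 5 at HD, with a ratio of 0.243 (95% counting interval 0.114 to 0.471) in RM that was past 1 log2 unit under all 4 scalings, and a difference of -1.22 in IL-8 that was -0.82 under median-ratio scaling.

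Among the activators, PSME1 and PSME2 form the interferon-inducible cap. PSME1 was at 89.6 TPM in LD, 85.4 with IL-6, 39.4 with IL-8, 90.0 with RM and 13.4 at HD, with IL-8 the lowest at low density at a ratio of 0.478 (95% counting interval 0.297 to 0.745), a difference of -1.17 that was -0.77 under median-ratio scaling. PSME2 was at 172 TPM in LD, 132 with IL-6, 121 with IL-8, 86.6 with RM and 0 at HD, from 130 reads in LD, 67 with IL-6, 66 with IL-8, 63 with RM and 0 at HD. No read of it was counted in HD, where 35.5 would be at the share of LD, at least 11.8-fold lower with HD at the floor, and the counting interval of the ratio starts at 9.49-fold. PSME3, the nuclear activator, was at 75.0 TPM in LD, 109 with IL-6, 56.1 with IL-8, 40.9 with RM and 28.4 at HD, with IL-6 the highest. PSME4, a large activator found in the nucleus, was at 54.6 TPM in LD, 31.4 with IL-6, 29.5 with IL-8, 34.1 with RM and 11.0 at HD, with LD the highest. Under median-ratio scaling PSME4 in RM differed from LD by 0.04. The inhibitor PSMF1 was at 36.4 TPM in LD, 46.2 with IL-6, 30.4 with IL-8, 11.9 with RM and 16.4 at HD, and RM was low at 0.388 (95% counting interval 0.268 to 0.553) times the read share of LD, a difference of -1.53 that was -0.85 under median-ratio scaling.

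**Figure D3:**
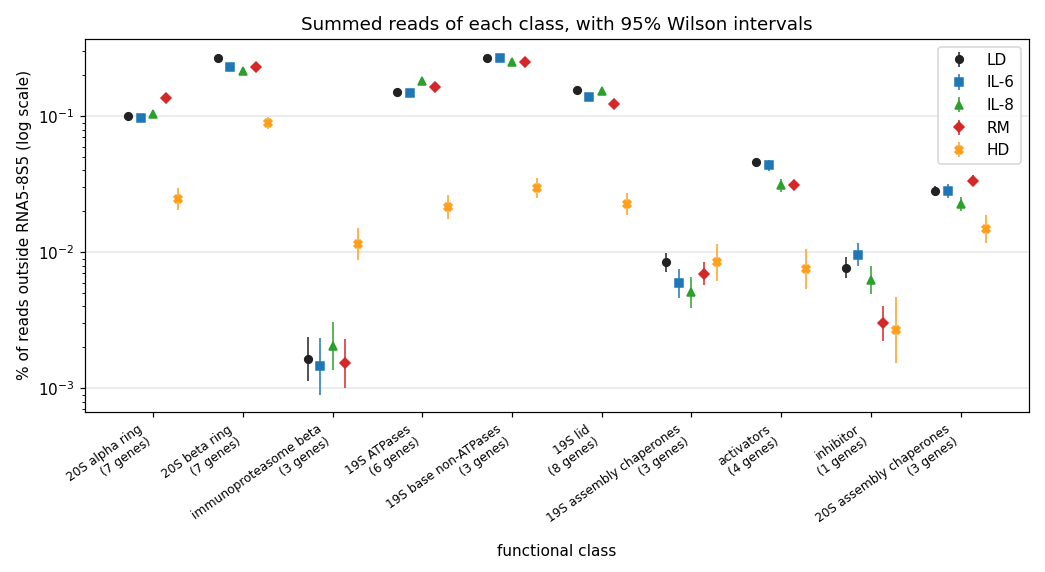
Summed reads of 10 functional classes as a percentage of reads outside RNA5-8S5, on a log axis, with 95% Wilson intervals as bars and 1 symbol per library. HD lies below the low-density libraries in the rings, the 19S particle and the activators, above them in the immunoproteasome genes, and level with LD in the 19S assembly chaperones. Of the 52 immunoproteasome reads in HD, PSMB10 gave 49 and PSMB8 gave 0.

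The 14 constitutive core genes summed to 6693 TPM in LD, 5951 with IL-6, 5461 with IL-8, 6001 with RM and 2817 at HD. The 17 genes of the 19S particle summed to 4730, 4466, 4713, 4049 and 834 TPM. The ratio of core to particle was 1.42 in LD, 1.33 with IL-6, 1.16 with IL-8, 1.48 with RM and 3.38 at HD. PSMB3 gave 1945 of the 2817 TPM of the core in HD.

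In HD most constitutive genes were far below LD and a few were above it. At the read shares of LD, 4688 proteasome reads would be counted in HD, and 1076 were, 4.36-fold fewer. Without PSMB3 these numbers were 4369 and 809, 5.40-fold fewer. The exact Poisson interval of the HD count lay under the number at the share of LD for 35 of the 42 genes with a mean of at least 20 reads, beside 58.3% of the 6728 such genes that had a read in LD. It held that number for PSMB2 and PSMC1 and lay over it for 5 of the 42, beside 23.4% of those genes. The low genes were spread over the rings, the ATPases, the base, the lid and the activators. PSMC3 had a 21.2-fold lower read share (95% counting interval 12.3 to 40.0), PSMB7 a 19.8-fold lower read share (95% counting interval 12.5 to 33.5) and PSMD2 a 12.4-fold lower read share (95% counting interval 9.84 to 15.9). No read was counted in HD for PSMB8, PSMD6 and PSME2, and 1 to 9 reads were counted for 19 genes. At the share of LD, PSMD6 would have 29.5 reads and PSME2 35.5. PSMB8 would have 0.273, so its 0 does not show a lower level. The 5 genes with an interval over the number at the share of LD were PSMA2, PSMB10, PSMC6, PSMD5 and PSMG4, with at least 22 reads each in HD.

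The calls in HD were nearly the same under the 4 scalings of depth: 10 genes stayed past 1 log2 unit above LD and 30 below it under all 4 scalings, and PSMF1 was the 1 gene of the 31 that dropped out. Of the 10, PSMA8, PSMB9, PSMG3-AS1 and PSMD6-AS2 passed the filter through HD alone. These genes, PSMB11 and PSMC3IP had 0 or 1 read in LD, so agreement between scalings says little about them. PSMB10, PSMC6, PSMD5 and PSMG4 were the 4 with a mean of at least 20 reads. Centred on the median well-counted gene, an alternative chosen after seeing the data, 13 were higher and 24 lower, and the median of the 50 was -0.69 in place of -1.53. With a counting interval that leaves out 1 as a further condition, 7 were higher and 31 lower, beside 42.1% and 16.2% of all genes. These shares also follow in part from the filter, which kept HD in it. At low density the same condition left 0 higher and 1 lower in IL-6, 1 and 8 in IL-8 and 2 and 10 in RM, beside 6.14% and 4.36%, 5.85% and 11%, and 5.1% and 16.3% of all genes.

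**Figure D4:**
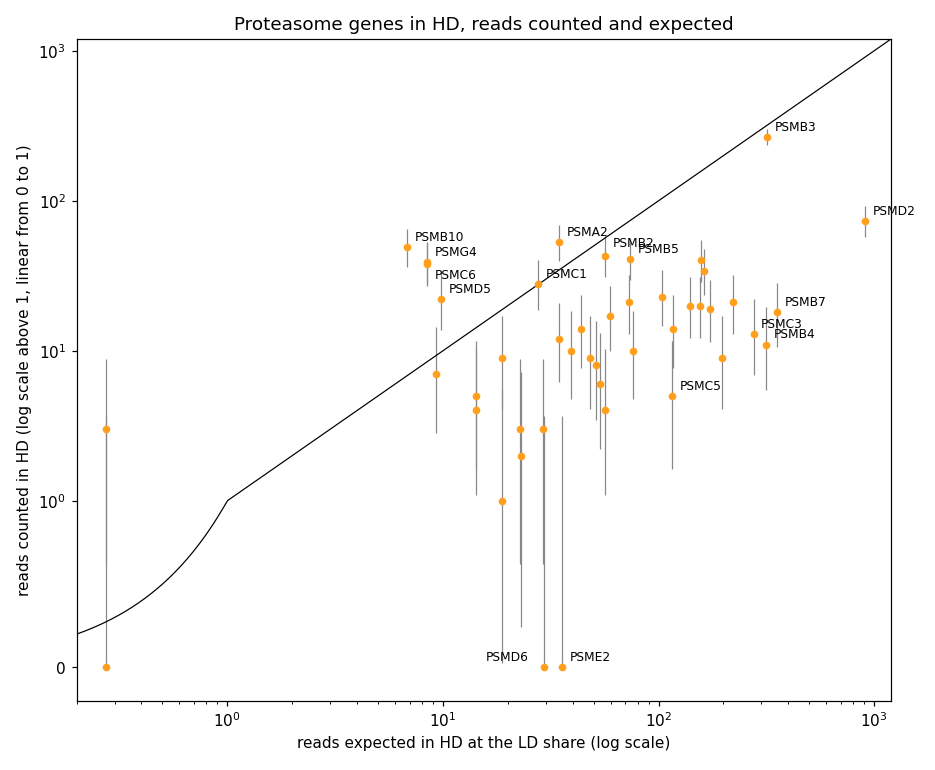
Reads counted in HD (vertical axis, log above 1 and linear below, bars are exact 95% Poisson intervals) against the reads expected in HD at the share of LD (horizontal log axis) for proteasome genes with a role and at least 1 read in LD. The line marks equal numbers: most genes lie under it, PSMB3, PSMB2 and PSMC1 lie near it, and PSMB10, PSMC6, PSMG4, PSMD5 and PSMA2 lie above it.

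Partners of the proteasome were read from fixed lists, whose counts stand beside the shares of all genes given above. These were 12.2% higher and 8.42% lower in IL-6, 9.4% and 18% in IL-8, 7.11% and 22.5% in RM, and 60.1% and 20.3% in HD. Those of HD follow in part from the filter, here and for the lists below. With a mean of at least 20 reads they were, in order, 9.38% and 7.18%, 10.6% and 20.6%, 9.8% and 29.6%, and 24.5% and 46.7%. Of 10 proteins that bind or help to build the 26S particle, 1 was higher and 1 lower in IL-6, 0 and 4 in IL-8, 0 and 2 in RM, and 1 and 5 in HD. POMP, which matures the core, was at 123 TPM in LD, 50.9 with IL-6, 27.5 with IL-8, 68.8 with RM and 42.2 at HD, so that LD was the highest. ADRM1, a ubiquitin receptor of the base, was at 691, 792, 786, 569 and 229 TPM in the same order. SHFM1, the smallest lid subunit, was at 144, 142, 56.7, 131 and 246 TPM, and HD was the highest. Of 5 genes for ubiquitin and its activating enzymes, 0 were called in IL-6, 1 lower in each of IL-8 and RM, and 2 lower in HD. UBA1, the main activating enzyme, was at 1011, 1009, 671, 913 and 194 TPM.

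Of 12 genes for shuttle factors and the unfoldase VCP, 0 were higher and 1 lower in IL-6 and 1 and 3 in IL-8. In RM, 2 were higher and 7 lower, beside 7.11% and 22.5% of all genes. In HD, 1 was higher and 8 lower, beside 60.1% and 20.3% of all genes. Among genes with a mean of at least 20 reads the shares were 9.8% and 29.6% in RM and 24.5% and 46.7% in HD. VCP, which extracts ubiquitinated proteins from complexes and membranes, was at 962 TPM in LD, 930 with IL-6, 833 with IL-8, 584 with RM and 34.4 at HD. Its cofactor NSFL1C had 687 reads in LD, 354 with IL-6, 284 with IL-8, 2348 with RM and 11 at HD, and RM stood clear of the rest. Transcription control was read from 6 genes, of which 1 was higher in IL-6, 1 lower in IL-8, 1 higher and 1 lower in RM, and 2 higher and 4 lower in HD. NFE2L1, the factor that induces proteasome genes when proteolysis is impaired, was at 381, 372, 406, 250.1 and 38.4 TPM. DDI2, a protease that activates it, had 42, 0, 12, 2 and 4 reads.

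Peptide loading for antigen presentation, which uses the products of the immunoproteasome, was read from 7 genes. In IL-6, 1 was higher and 1 lower, in IL-8 and RM 0 were higher and 4 and 3 lower, and in HD 3 were higher and 1 lower, beside 60.1% and 20.3% of all genes in HD and 18% and 22.5% lower in IL-8 and RM. IRF1, an interferon-induced factor that activates PSMB9, was at 7.34 TPM in LD, 11.3 with IL-6, 3.29 with IL-8, 3.52 with RM and 119 at HD. B2M, the light chain of class I molecules, was at 640, 351, 230.3, 345 and 21.6 TPM, so that HD was the highest for IRF1 and the lowest for B2M. The counts of these lists in IL-8 and RM were taken on the main scale, on which the median well-counted gene lay below LD.

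Promoter letters were searched because these genes are known to be controlled together. RefSeq promoters on GRCh38.p14 were found for 41 of the 47 genes with a role, and the 250 bases before the start were searched on both strands. The core of the antioxidant response element, TGACNNNGC, which NFE2L1 and NFE2L2 bind, was in 10 of the 41 (24.4%) and in 11% of 27305 promoters. CCAAT was in 18 (43.9%, against 33%), the ETS type CCGGAAG in 10 (24.4%, against 8.82%) and the GC box GGGCGG in 25 (61%, against 42.3%). The 4 motifs were searched separately and may overlap. Matches of the first are shown for 6 genes with unlike levels in the libraries. PSMB3 was level in all 5 in TPM on the main scale, and PSMD5 was high in HD. Of the low-density libraries, PSMD3 was lowest in IL-6, PSMD12 and PSMG1 in RM, and PSME1 in IL-8. The difference of PSME1 was less than 1 log2 unit under median-ratio scaling. In HD, PSMD3, PSMD12 and PSME1 were called lower too, and PSMG1 had a lower read share than in LD. Capitals mark the core, and positions are on GRCh38.p14.
PSMB3 (chr17:38752627-38752655, + strand): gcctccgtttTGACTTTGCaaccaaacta
PSMD3 (chr17:39980760-39980788, + strand): tcccctttgtTGACTCGGCcatcggcctg
PSMD12 (chr17:67366724-67366752, - strand): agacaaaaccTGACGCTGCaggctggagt
PSMG1 (chr21:39183616-39183644, - strand): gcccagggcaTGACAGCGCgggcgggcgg
PSME1 (chr14:24136098-24136126, + strand): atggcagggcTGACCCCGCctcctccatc
PSMD5 (chr9:120843038-120843066, - strand): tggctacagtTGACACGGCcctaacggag

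The match ends 96 bases before the start in PSMB3, 29 in PSMD3, 157 in PSMD12, 175 in PSMG1, 78 in PSME1 and 126 in PSMD5, and all 6 read along the strand of the gene. The other 4 genes with a match were PSMB9, PSMD9, PSME2 and PSME4. The 6 were chosen after their values were seen, and a match is a description and not evidence of binding.

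All 50 genes had a position in GENCODE 29 on GRCh38, matched by symbol, while the reads had been aligned to hg19. PSMB3 lies on chromosome 17 from 38752736 to 38764231, PSMB4 on chromosome 1 from 151399534 to 151401944, PSMB5 on chromosome 14 from 23016543 to 23035230, and PSMA7 on chromosome 20 from 62136735 to 62143440. PSME1 and PSME2, which form 1 complex, lie next to each other on chromosome 14, from 24136158 to 24138967 and from 24143362 to 24147570. In 25 of the 50 genes exon bases were shared with another gene, over more than 50% of them in PSMC1 alone, and 12 genes had a total of 32 pseudogenes named after them. Reads in shared bases and on near-identical copies may be divided differently by another counting, and without strand a gene and its antisense partner cannot be told apart.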

How the data were processed

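RNA-seq was available for 5 conditions with 1 library each (LD, HD, RM, IL-6 and IL-8), and groups were taken from the sample labels. The cDNA was primed with oligo-dT, amplified as a whole pool with phi29 polymerase and tagmented, without strand or molecular identifiers, and sequenced as 50 bp single-end reads. Per the submitters' processing notes, Bowtie2 2.3.1, RSEM 1.2.25 and hg19 (GRCh37) were used by the authors; the annotation and filters are not given in the sources used here. The authors deposited a whole-number read count per gene, which appears rounded from RSEM's estimates, and the authors also deposited a TPM value per gene, corrected for length by RSEM. A cell-free collagen control was not analysed here.

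TPM was rescaled to 1000000 without RNA5-8S5, and differences were taken on log2(TPM + 1) over genes that reached 1 TPM in any library. Ratios of read shares have exact conditional binomial 95% intervals, single counts exact Poisson and shares Wilson intervals, all for counting error only. The floor was 3 reads of a library. No p-value was computed. Proteasome genes were chosen by symbol and classed by known role. Values in all libraries were given for the highest and lowest gene of each class in LD, the catalytic and inducible subunits, activators, inhibitor and chaperones, each gene called at low density with an interval leaving out 1, and in HD the genes with no read and the 5 furthest above LD. The other genes, those of the pathway lists included, were named after their values were seen. Some genes of the lists are not reported here and were left out of their counts. The members and lists were chosen with earlier results of these data known. Alternatives were the pseudocount, filter, scaling, measure and threshold. Scripts were tested on simulated data. Python 3.11.15, numpy 2.4.6, pandas 2.3.3 and scipy 1.17.1 were used.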

Additional observations from a re-analysis of the deposited data

How the results depend on the processing

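No paired analysis was possible because each condition had 1 library. Of 94 gene counts recomputed, 70 stayed within 1.5 times of the reported value. These include counts with no filter and with HD left out of the filter, which could not change by construction. The shares of reads in the 5 libraries were recomputed apart, and all 5 fell outside their main intervals. With a pseudocount of 0.1 TPM, 4 proteasome genes were higher in IL-6. With 5 TPM, 0 were higher in IL-6 and 1 in IL-8. Median-ratio size factors gave 5 higher and 4 lower in IL-8 and 5 higher and 5 lower in RM. The higher genes were PSMB1, PSMB8, PSMC3, PSMD11 and PSMG4 in IL-8. In RM they were PSMA7, PSMB5, PSMB6, PSMB8 and PSMC5. Restricting to a mean of at least 20 reads left 0 higher with IL-6, 1 with IL-8, 1 with RM and 4 at HD. A threshold of 2 log2 units left 0 higher and 0 lower in IL-6, 0 and 1 in IL-8, and 1 and 3 in RM. Asking for a counting interval that leaves out 1 left 0 higher in IL-6 and 1 in IL-8. As shares of all counted reads, RNA5-8S5 included, proteasome genes took 0.241% in LD, 0.210% with IL-6, 0.198% with IL-8, 0.205% with RM and 0.116% at HD. Chosen after seeing the data, leaving out the 3 genes without a proteasome role gave 1 higher in IL-6, and centring on the median well-counted gene gave 5 higher and 4 lower in IL-8, 4 higher and 6 lower in RM and 13 higher and 24 lower in HD. The filters and the stricter thresholds test fewer genes or ask for more by construction, and the cause of the other shifts was not tested. Depth limits HD most: the median proteasome gene had 11.5 reads there and 76.5 to 151.5 elsewhere.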

Other observations

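RM can also be set beside the single-cytokine libraries, which leaves LD out. PSMB5, the chymotrypsin-like catalytic subunit, had a read share in RM that was 2.65 times that of IL-6 (95% counting interval 2.22 to 3.18) and 2.15 times that of IL-8 (1.83 to 2.54). PSMC5, an ATPase of the base, had ratios of 2.53 (2.16 to 2.97) and 2.20 (1.89 to 2.56), and PSMA7, of the alpha ring, had ratios of 2.03 (1.84 to 2.24) and 1.49 (1.37 to 1.63). RM was thus above both single-cytokine libraries in these 3 genes. It was below both in PSMA1, at ratios of 0.174 (0.0845 to 0.329) and 0.361 (0.166 to 0.740), in PSMC2, at 0.320 (0.228 to 0.445) and 0.511 (0.355 to 0.732), and in PSMG4, at 0.256 (0.0919 to 0.625) and 0.122 (0.0462 to 0.272). These 6 genes were chosen after their values were seen, each condition was 1 library, and the intervals cover counting error only.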
